A study of Homo sapiens and Mus musculus with 92 samples.

Results

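A set of 40 genes of mitosis and the spindle checkpoint was followed in RNA-seq of HEL cells in which MLL1 or AF9 had been knocked down. HEL is an established human erythroleukemia line without an MLL rearrangement. The genes were taken by symbol, from the cyclins that start mitosis to the proteins that divide the cell. The rule used none of their values, but the genes were chosen with earlier results of these data known. All 40 were found among the 28103 gene symbols of each count table, and all 40 passed the filter on low values in both experiments (a mean TPM, the length-corrected share of transcripts, of at least 1), where 14408 genes were tested for MLL1 and 13350 for AF9. The MLL1 experiment held 3 control and 3 MLL1 KD libraries, and the AF9 experiment held 2 control and 2 AF9 KD libraries, each with controls of its own. Control cells are labelled WT in genotype, and the study's methods state that they received the TRC control lentiviral shRNA. Each KD rested on a single shRNA in a puromycin-selected bulk culture, so an effect of the shRNA sequence other than that on its target cannot be told apart from the loss of the target. CUT&Tag and PRO-seq samples of the series, and its MOLM-13 and iMA9 samples, were not analysed here.

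MLL1 is a histone methyltransferase and AF9 is a chromatin reader of the super elongation complex and the DOT1L complex. Both are joined in the MLL-AF9 fusion of acute leukemia. The 40 genes encode the machinery that is built up anew in each cell cycle as a cell approaches division. Cyclin B with CDK1 starts mitosis, the kinetochore ties each chromosome to spindle microtubules, and the spindle checkpoint holds back the anaphase-promoting complex (APC/C) until every chromosome is attached. Separase then cuts the cohesin that holds sister chromatids, and the cell is pinched apart by cytokinesis. Many genes of this kind are kept silent in resting and early cycling cells by the DREAM complex and are switched on late in the cycle by B-MYB and FOXM1. Their mRNA level in a culture therefore moves with the share of cells in G2 and mitosis, and in bulk samples fewer dividing cells and less mRNA per dividing cell cannot be told apart.

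Library totals ran from 6966345 to 10380241 counts in the MLL1 experiment and from 12278989 to 14232408 in the AF9 experiment. The targets were read first. KMT2A, the gene of MLL1 (ENSG00000118058, chr11:118436456-118526832, plus strand, hg38), was at 1318, 1302 and 1254 CPM (counts scaled by library size, with TMM factors) in the controls and at 815, 812 and 832 CPM in the MLL1 KD libraries. Every KD library lay below every control, at a log2 fold change of -0.66 ± 0.09 (SE), but the difference missed the threshold with an adjusted p of 0.072 and passed it when libraries were paired by replicate number (adjusted p = 2.5e-07) and without MLL1 KD replicate 1 (0.042). KMT2A shares 21.8% of the 31-base words of its transcript with other annotated genes, most with ENSG00000285827, so part of its reads may be uncertain. MLLT3, the gene of AF9 (ENSG00000171843, chr9:20341669-20622499, minus strand), was at 547 and 527 CPM in the controls of its experiment and fell to 107 and 92.5 CPM in AF9 KD, a log2 fold change of -2.43 ± 0.11 with an adjusted p of 2.9e-08. Erythroid transcripts were found in every library (GATA1 at 496 to 734 TPM, KLF1 at 230 to 346 TPM), as was ITGA2B of the megakaryocyte lineage (610 to 968 TPM), whereas the megakaryocyte genes PPBP (0 to 1.57 TPM) and VWF (0 to 0.628 TPM) were at or near 0. Of markers of other lineages, CD3D, CD3E, CD3G, MS4A1, CDH1 and DCN were at or near 0, but CD79A was at 4.62 to 20.6 TPM, KRT18 at 45.6 to 70.9 TPM, KRT8 at 3.30 to 20.3 TPM and EPCAM at up to 5.67 TPM. The experiments differed in some erythroid transcripts: the fetal globin gene HBG1 was at 94.4 to 205 TPM in the MLL1 experiment and at 5909 to 9071 TPM in the AF9 experiment. Others overlapped, such as HBA1 (545 to 1934 against 368 to 1266 TPM) and EPOR (18.2 to 55.2 against 17.3 to 27.3 TPM). Cell state and library batch cannot be told apart here. For this reason KD was compared with control within each experiment only. Replicate 1 of the MLL1 experiment stood apart, since its libraries differed from replicates 2 and 3 of their own group by 31.6 to 60.2 in chi-square per degree of freedom, against 2.40 and 2.69 between replicates 2 and 3. Same-numbered control and KD libraries there deviated together (correlations of 0.647, 0.325 and 0.351 over all genes), though control 2 with KD 3 (0.368) and control 3 with KD 2 (0.359) did so as much, so that the numbers set replicate 1 apart but do not tell 2 from 3. The replicate number was also used as a block, and blocked values are given where they change a call.

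In the control cells the 40 genes spanned a wide range of levels. Per transcript length, TPX2 led in the MLL1 experiment at 941 ± 103 TPM (SD, n = 3), followed by CDC20 at 478 ± 3.51, BUB1 at 439 ± 20.3 and TOP2A at 380.1 ± 38.3 TPM. CDC25C was lowest at 19.8 ± 3.14 TPM, with MAD2L1 at 24.9 ± 2.08 TPM next to it. In the AF9 experiment TOP2A led at 1124 ± 44.6 TPM (SD, n = 2), followed by TPX2 at 901 ± 24.7, CDC20 at 799 ± 32.6 and KIF2C at 619.95 ± 16.0 TPM, and CDC25C was again lowest at 28.5 ± 0.364 TPM. Some neighbours in this order did not differ beyond their spread, such as SPC25 (32.9 ± 5.77 TPM) and CENPE (32.1 ± 9.80 TPM) in the MLL1 controls. Together the 40 genes made up 5595 to 6051 TPM of the MLL1 controls and 10238 and 10663 TPM of the AF9 controls, a gap that cannot be told apart from the experiment itself.

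Promoters of these genes often carry the cell cycle genes homology region (CHR), at which DREAM and B-MYB complexes bind, and CCAAT boxes, bound by NF-Y. RefSeq promoter windows (GRCh38.p14, 250 bases before to 50 bases after the start site) were at hand for 34 of the 40 genes, and AURKA, BUB3, TTK, BIRC5, TPX2 and UBE2C had none. The letters TTTGAA, searched on both strands, stood in 23 of the 34 windows (67.65%) against 4212 of 27305 promoters in all (15.43%). CCAAT on either strand stood in 26 of 34 (76.47%) against 35.7% of all promoters, and both motifs in 19 (55.88%) against 6.083%. The CHR letters occurred 31 times in the 23 windows, and 16 of these occurrences, in 14 genes, began within the 40 bases before the start site. The windows printed here are those of genes on which the results turn, CDK1 and HMMR (called lower in AF9 KD) and ESPL1 and ANLN (whose values lay on opposite sides of the controls in the 2 KDs), with PLK1 and CCNB2 as typical of the position near the start site. Each is 30 bases of the gene's own strand, 5′ to 3′, with the CHR letters in capitals.
CDK1: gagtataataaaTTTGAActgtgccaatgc
HMMR: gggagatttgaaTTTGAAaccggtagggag
ESPL1: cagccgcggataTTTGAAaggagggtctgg
ANLN: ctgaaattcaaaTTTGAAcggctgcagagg
PLK1: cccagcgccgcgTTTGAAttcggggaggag
CCNB2: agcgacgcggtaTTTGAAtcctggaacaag
They lie at chr10:60778158-60778187 for CDK1, chr5:163460598-163460627 for HMMR, chr12:53268256-53268285 for ESPL1, chr7:36389830-36389859 for ANLN, chr16:23678848-23678877 for PLK1 and chr15:59105105-59105134 for CCNB2, all on the plus strand. Counted from the start site, the first base of the motif was at -161, -22, -31, -20, -29 and -29 in the same order. HMMR held a second copy directly before the printed one on the same strand, and ANLN one on the opposite strand. In the windows of NEK2, BUB1 and CDC25C, which were also called lower in AF9 KD, these letters do not occur. The median AF9 KD log2 fold change was -0.27 over the 23 genes with the letters and -0.45 over the 11 without them. Whether the letters bear on the fold change was not tested. Only the first listed window of each gene was searched, and for the exact letters alone. A variant of the motif or a copy at another start site would be missed. A match of letters is a description of the sequence only.

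**Figure D1:**
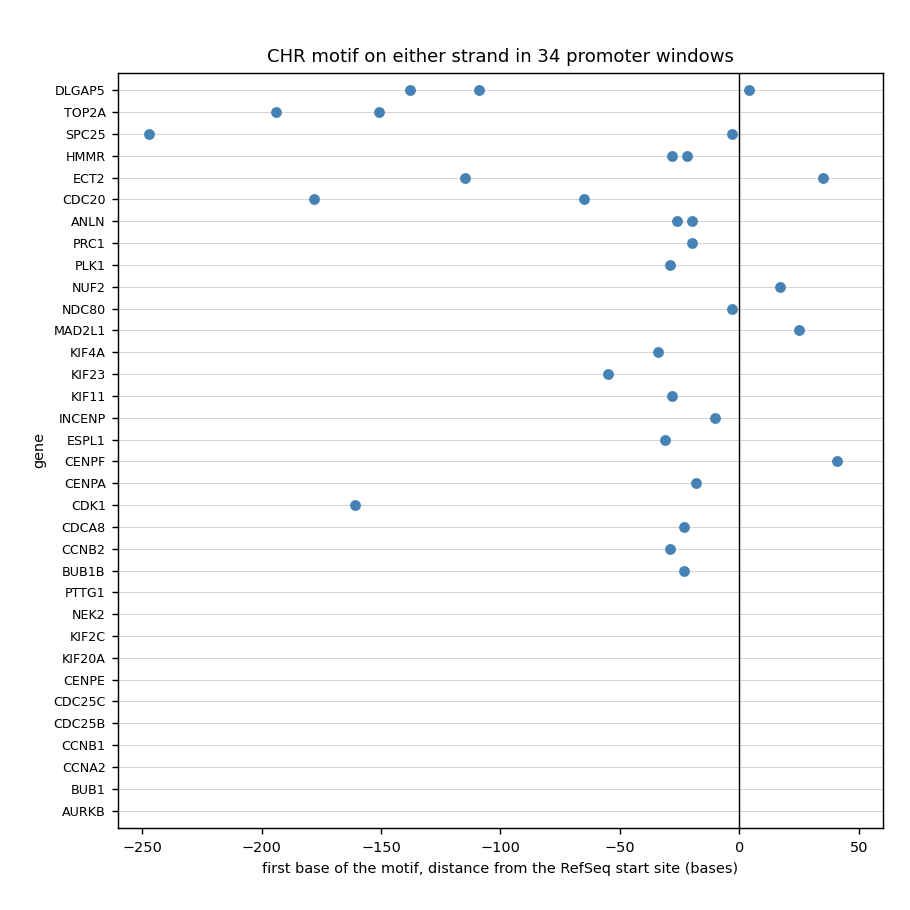
Position of the CHR letters (TTTGAA on either strand) in the 34 promoter windows, with the distance of the motif's first base from the RefSeq start site in bases on the x axis and 1 gene per row. Of 31 occurrences, 16 lie within the 40 bases before the start site, and 11 genes have none.

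Most of the 40 genes had slightly lower values in AF9 KD. Relative to the mean of the controls, the median gene stood at a log2 ratio of -0.25 in AF9 KD replicate 1 and -0.47 in replicate 2, and summed levels went from 10663 and 10238 TPM in control to 8975 and 8074 TPM in KD. Of the 40 genes, 38 had a negative log2 fold change against 49.1% of all genes tested, and the median was -0.37 (77.3% of control) against 0.01 for all genes. The sign was negative in 36 genes when scaled by total counts (40% of all genes) and in 35 with an offset for GC content (48.8%). In edgeR's quasi-likelihood fit, with p-values adjusted after Benjamini and Hochberg, 24 genes were lower and 1 (ESPL1) was higher at an adjusted p under 0.05, where 14.5% of all genes tested were lower and 14.4% higher. The number passing changed when 1 library was left out. The median of the 40 genes was then -0.47 without AF9 KD replicate 1 and -0.25 without AF9 KD replicate 2. When a change of at least 1.5-fold was also asked for, 6 genes were called lower (5.06% of all genes tested) and 0 higher (8.01%). The 6 were NEK2, CDC25C, CDK1, TTK, HMMR and BUB1. DESeq2 on the same genes also called 6 lower (561 of all 13350 genes), and none of the 40 was lower by 2-fold (1.03% of all genes). In 32 genes both KD libraries lay below both controls, as was the case for 33.2% of all genes tested, and in ESPL1 both lay above (32.9%).

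The count of 6 changed with single libraries, with scaling and with base composition. Without AF9 KD replicate 2, in which the genes were lowest, TTK (-0.56), HMMR (-0.52) and BUB1 (-0.49) fell short of 1.5-fold. NEK2 (-0.80), CDC25C (-0.68) and CDK1 (-0.64) did not. Without AF9 KD replicate 1 the 6 genes ran from -0.77 (BUB1) to -0.95 (CDK1). Scaling by total counts left 5 calls, without BUB1 (440 of all 13350 genes). Over all 13061 genes tested with a known GC content, the AF9 KD fold change rose with GC content (Spearman's rho 0.48, a description across genes), and the 40 genes are AT-rich, with a median GC content of 43.4% against 47.7%. With an offset that removed each library's trend with GC content (rho 0.01), 2 genes were still called lower, NEK2 and CDC25C (4.26% of all genes), and 25 were lower at an adjusted p under 0.05 (14.2%). The median of the 40 was then -0.29. Whether the GC trend is part of the response to AF9 KD was not tested.

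**Figure D2:**
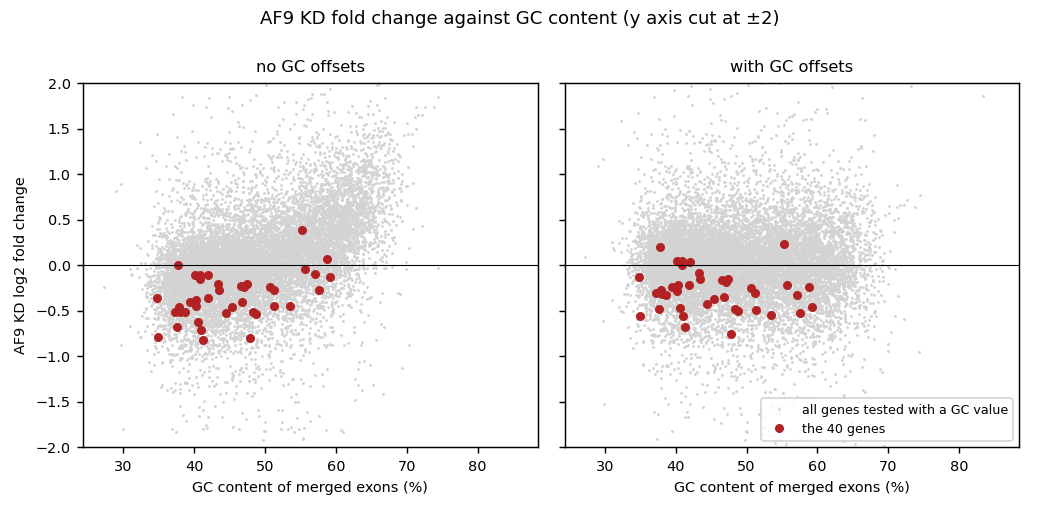
AF9 KD log2 fold change (y axis) against GC content of merged exons in percent (x axis) for all genes tested (grey) and the 40 genes (red), without and with offsets for GC content. The trend over all genes (rho 0.48) is gone with the offsets (rho 0.01), and the median of the 40 genes moves from -0.37 to -0.29.

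MLL1 KD gave no call for any of the 40 genes, and its replicates did not point the same way. In the pair of libraries numbered 1, 33 of the 40 genes were lower in KD than in control (median log2 ratio -0.24), whereas in pair 2 only 14 and in pair 3 only 8 were lower (medians 0.10 and 0.18). As a set, the 40 genes showed no such shift in the controls. There replicate 1 lay above and below the mean of replicates 2 and 3 in 20 genes each. Gene by gene, control and KD replicate 1 still deviated together from their group means (correlation 0.863 over the 40 genes). Control replicate 1 ranged from a log2 ratio of -0.94 in CENPA to 0.47 in AURKA, with HMMR at -0.74 and AURKB at 0.43. Within MLL1 KD, replicate 1 was below the mean of replicates 2 and 3 in 31 of 40 genes, by most in HMMR (log2 ratio -2.01). The fitted median over the 40 genes was 0.06 against 0.01 for all genes tested, with 16 genes negative (48.6% of all genes), and it fell to -0.03 without KD replicate 2, to -0.02 without KD replicate 3 and rose to 0.17 without KD replicate 1. None of the 40 was called lower or higher, as against 0.0347% of all genes in each direction, and 3 were lower and 2 higher at an unadjusted p under 0.05 (5.02% and 4.96% of all genes). This fit was unpaired, and the target KMT2A was not called in it either, so its lack of calls says little. All 3 KD libraries lay below all 3 controls in 4 genes (9.06% of all genes) and above them in 3 (8.64%). DESeq2 on the same genes, which called 119 genes lower and 113 higher over the whole table, also called none of the 40.

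With the replicate number as a block, 363 genes were called lower (2.52%) and 320 higher (2.22%), and the 40 genes still gave no call at 1.5-fold. At an adjusted p under 0.05 alone, 4 were lower (BUB1, ESPL1, INCENP and KIF2C) against 6.95% of all genes, and 2 were higher (ANLN and CCNA2) against 6.62%. When replicates 2 and 3 were fitted alone, 18 were higher (9.2% of all genes) and 3 lower (9.09%), again with none past 1.5-fold. The 18 included ANLN at 0.54, NDC80 at 0.38, NEK2 at 0.37 and AURKA at 0.36 on the log2 scale. BUB1, ESPL1 and KIF2C were the 3 lower genes there too.

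**Figure D3:**
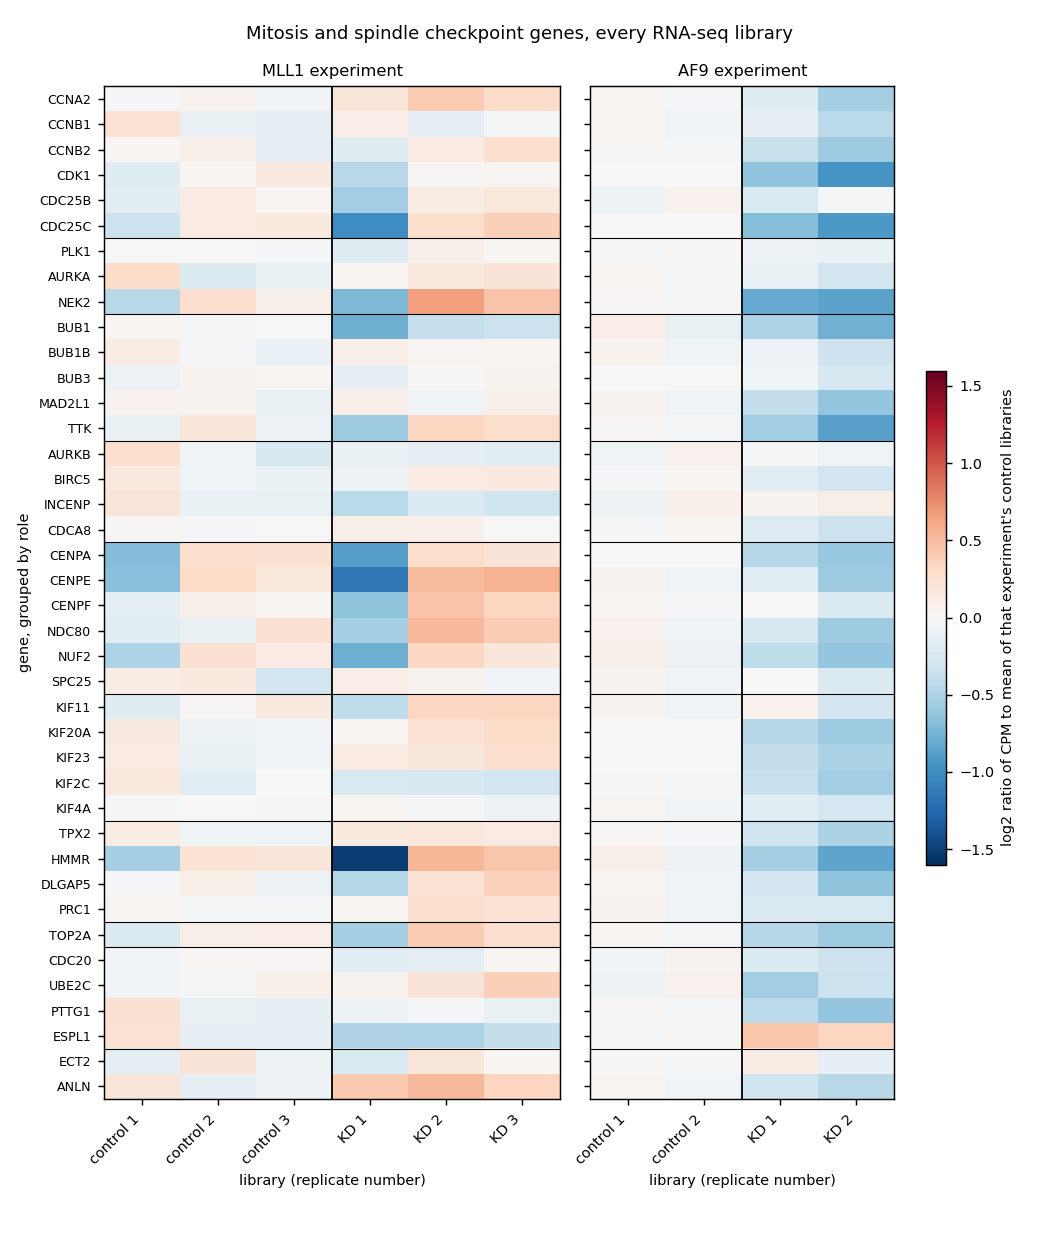
Log2 ratio of CPM to the mean of the experiment's own controls (colour) for the 40 genes (rows, grouped by role) in the 10 libraries (columns). AF9 KD libraries are blue in most rows, with ESPL1 red, while MLL1 KD replicate 1 is blue and replicates 2 and 3 are red in many of the same rows.

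**Figure D4:**
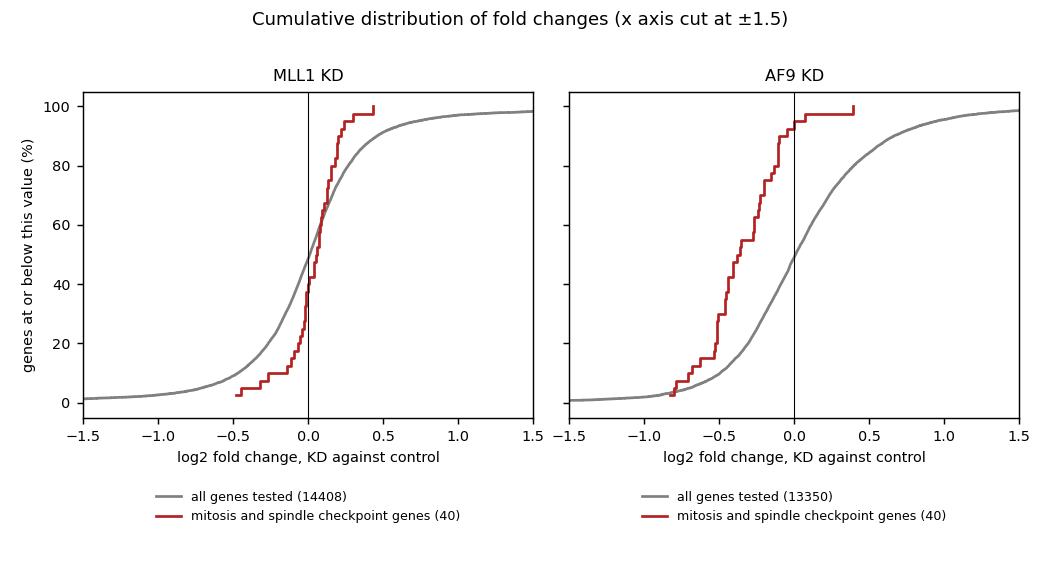
Share of genes at or below a given log2 fold change (x axis) for all genes tested (grey) and the 40 genes (red). The red curve lies to the left of the grey in AF9 KD (median -0.37 against 0.01) and crosses it in MLL1 KD (median 0.06 against 0.01).

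The first role is that of the cyclins, CDK1 and the CDC25 phosphatases, which drive entry into mitosis. All 6 were negative in AF9 KD with a median of -0.41, and CDK1, the mitotic kinase itself, was at 375 and 371 CPM in the controls and at 238 and 193 CPM in AF9 KD. Both KD libraries were far below the controls, at a log2 fold change of -0.79 ± 0.11 (adjusted p = 0.00023), although with the GC offset the change was -0.56 and short of 1.5-fold. CDC25C, which removes inhibitory phosphates from CDK1, went from 22.4 and 22.3 CPM to 13.9 and 11.8 CPM (-0.80 ± 0.15, adjusted p = 0.0016). CCNB1, the major mitotic cyclin, was at 184 and 174 CPM in control and at 164 and 133 CPM in KD. It lay lower in both KD libraries but did not pass (-0.27 ± 0.11, adjusted p = 0.073). CCNB2 (-0.46) and CCNA2 (-0.36) were lower at adjusted p values of 0.0038 and 0.027 without reaching 1.5-fold, and CDC25B gave -0.13 ± 0.11. In the MLL1 experiment CDK1 was at 58.1, 68.2 and 73.9 CPM in control and at 49.0, 67.5 and 68.4 CPM in KD, and CCNB1 at 90.1, 70.7 and 68.6 against 82.0, 68.5 and 75.0 CPM. The groups overlapped in both genes. CDC25C was at 13.5, 18.7 and 19.2 CPM in control and at 8.65, 20.8 and 22.4 CPM in MLL1 KD, the first KD library being the lowest and the other two the highest of the 6. CCNA2, the cyclin of S and G2 phase, was picked for its values after they were seen: it stood at 167, 176 and 163 CPM in control and at 192, 224 and 206 CPM in MLL1 KD, above every control (0.30 ± 0.11, adjusted p = 0.42, and 0.014 with the block).

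Of the mitotic kinases, NEK2, which separates the centrosomes, had the lowest fold change of the 40 genes in AF9 KD, although CDC25C was lower with the GC offset (-0.75) and CDK1 (-0.95) and CDC25C (-0.92) were lower than NEK2 (-0.85) without AF9 KD replicate 1. It was at 137 and 133 CPM in control and at 77.6 and 74.8 CPM in KD (-0.83 ± 0.09, adjusted p = 6.4e-05). With the GC offset its log2 fold change was -0.68, still past the thresholds. PLK1, which acts from the centrosomes to the midbody, was at 149 and 153 CPM against 142 and 140.2 CPM (-0.10 ± 0.09, adjusted p = 0.45), and AURKA, the kinase of the spindle poles, at 115 and 110.4 against 104 and 92.1 CPM (-0.20 ± 0.10, adjusted p = 0.14). Neither passed, though the KD libraries were lowest in both. NEK2 in the MLL1 experiment was at 20.5, 33.5 and 29.6 CPM in control and at 17.0, 43.7 and 38.2 CPM in KD, so that replicate 1 was lowest in either group. PLK1 was at 274, 273 and 269 against 237, 289 and 278 CPM, and AURKA at 123, 85.6 and 91.8 against 102, 112 and 116 CPM. All 3 kinases overlapped between MLL1 KD and control. NEK2 shares 17.0% of its 31-base words with other annotated genes, most with NEK2P1, and AURKA 22.5%, so some of their reads may be uncertain.

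The spindle checkpoint genes were negative in AF9 KD in 5 of 5, with a median of -0.51. BUB1, a kinase that docks checkpoint proteins on the kinetochore, was at 921 and 783 CPM in control and at 605 and 498 CPM in KD (-0.63 ± 0.12, adjusted p = 0.0017), a call lost without AF9 KD replicate 2, without control replicate 1 and with the GC offset. TTK (MPS1), the kinase that starts checkpoint signalling, went from 232 and 226 CPM to 155 and 126 CPM (-0.71 ± 0.11, adjusted p = 0.00044), with the call lost without AF9 KD replicate 2 and with the GC offset. Both KD libraries lay below both controls in each gene. MAD2L1, a core component of the inhibitor of APC/C, was at 220.0 and 202 CPM in control and at 160.1 and 136 CPM in KD, lower at an adjusted p of 0.0026 but by less than 1.5-fold (-0.51 ± 0.10). BUB1B, its partner BubR1, was at 263 and 245 against 239 and 202 CPM (-0.20 ± 0.10, adjusted p = 0.15), and BUB3, which carries BUB1 and BUB1B to the kinetochore, at 252 and 249.5 against 240.1 and 211 CPM (-0.15 ± 0.10, adjusted p = 0.26). The last 2 did not pass. BUB1 was also the gene with the lowest fold change of the 40 in MLL1 KD, at 732, 711 and 714 CPM in control and 419.7, 559 and 565 CPM in KD. Every KD library was below every control (-0.48 ± 0.14), with an adjusted p of 0.28 that became 2.7e-04 with the block, and the fold stayed under 1.5. TTK was at 88.7, 109.7 and 89.7 CPM in control and 64.8, 122 and 117 CPM in MLL1 KD, and MAD2L1 at 37.1, 37.2 and 32.8 against 37.8, 34.3 and 37.7 CPM. BUB1B was at 164, 147 and 140.0 against 161, 154 and 153 CPM, and BUB3 at 139, 154 and 152 against 136, 150.5 and 154 CPM. In these 4 genes MLL1 KD and control overlapped.

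The chromosomal passenger complex, which corrects faulty attachments and directs cytokinesis, had a median of -0.14 in AF9 KD, with none of its 4 genes called. AURKB, its kinase, was at 69.3 and 76.0 CPM in control and at 71.5 and 69.2 CPM in KD (-0.05 ± 0.10, adjusted p = 0.77), and scaling by total counts turned its sign (0.04). CDCA8 (borealin) was lower at an adjusted p of 0.045 (-0.27 ± 0.09), BIRC5 (survivin) gave -0.24 ± 0.09 (adjusted p = 0.076), and INCENP, the scaffold, 0.07 ± 0.10, which became -0.24 with the GC offset. In the MLL1 experiment AURKB was at 88.3, 70.0 and 61.4 CPM in control and at 67.8, 66.8 and 64.7 CPM in KD, overlapping. INCENP, shown for its values after they were seen, was at 159, 129.8 and 129 CPM in control and 103, 119.6 and 112 CPM in MLL1 KD, below every control (-0.32 ± 0.13, adjusted p = 0.48, and 0.036 with the block).

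At the centromere and kinetochore, all 6 genes were negative in AF9 KD and 4 were lower at an adjusted p under 0.05, none by 1.5-fold. CENPA, the centromeric histone variant, was at 70.7 and 70.3 CPM in control and 51.3 and 46.1 CPM in KD (-0.53 ± 0.10, adjusted p = 0.0022). NDC80, which gives its name to the complex that grips microtubules, was at 121 and 111 against 97.0 and 77.9 CPM (-0.41 ± 0.11, adjusted p = 0.015). Of the other subunits of its complex, NUF2 gave -0.51 (adjusted p = 0.0034) and SPC25 -0.11 (0.61), and SPC25 turned to 0.03 with the GC offset. SPC25 shares 17.1% of its 31-base words with other annotated genes, most with HELLPAR. CENPE, the kinetochore kinesin, gave -0.36 (adjusted p = 0.037) and CENPF -0.11 (0.45), the latter turning to 0.05 with the GC offset. CENPA in the MLL1 experiment was at 20.0, 38.6 and 38.3 CPM in control and at 17.6, 39.2 and 37.3 CPM in KD, and NDC80 at 52.3, 54.1 and 69.5 against 40.5, 84.2 and 77.9 CPM. In both genes replicate 1 was the lowest library of each group. CENPE spread most of this group, from 37.9 CPM in MLL1 KD replicate 1 to 122 CPM in replicate 3.

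Of the kinesins, KIF20A (-0.51 ± 0.09, adjusted p = 0.0014), KIF23 (-0.44 ± 0.09, 0.0036) and KIF2C (-0.45 ± 0.10, 0.0048) were lower in AF9 KD without reaching 1.5-fold. KIF20A and KIF23 work at the central spindle, and KIF2C takes microtubules apart at the centromere. KIF11 (Eg5), which pushes the spindle poles apart, was at 246 and 229 CPM in control and at 249 and 193 CPM in KD. The KD libraries lay on both sides of the controls (-0.11 ± 0.12, adjusted p = 0.52), and the sign turned with the GC offset (0.04) and without AF9 KD replicate 2 (0.07). KIF4A, a chromosome arm kinesin, gave -0.23 ± 0.10 (adjusted p = 0.085). KIF11 in the MLL1 experiment was at 99.2, 115 and 126 CPM in control and 85.9, 142 and 144 CPM in KD, again with KD replicate 1 lowest. KIF2C, picked after its values were seen, was at 287, 227 and 254 CPM in control and 216, 215 and 208 CPM in MLL1 KD, below every control (-0.27 ± 0.12, adjusted p = 0.53, and 0.031 with the block). KIF4A shares 28.4% of its 31-base words with KIF4B, so part of its reads may be uncertain.

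Among spindle-associated proteins, HMMR, which supports spindle assembly at the poles, was at 289 and 259 CPM in control and fell to 190.4 and 152 CPM in AF9 KD (-0.68 ± 0.11, adjusted p = 0.0008). Its call was lost without AF9 KD replicate 2 and with the GC offset (-0.48). TPX2, the activator of AURKA, was at 775 and 755 CPM against 614 and 539 CPM, lower at an adjusted p of 0.0087 but by less than 1.5-fold (-0.41 ± 0.10). DLGAP5 (HURP) gave -0.46 ± 0.11 (adjusted p = 0.0074), and PRC1, the crosslinker of the central spindle, -0.24 ± 0.09 (0.071). PRC1 shares 86.6% of its 31-base words with another annotated gene, ENSG00000284946, and its count is uncertain for that reason. TPX2 in the MLL1 experiment was at 959, 839 and 841 CPM in control and 979.7, 992 and 962 CPM in KD, above every control by a small margin (0.15 ± 0.10, adjusted p = 0.70). HMMR had the widest spread of the 40 genes there, at 58.5, 98.3 and 97.0 CPM in control and 29.5, 122 and 115 CPM in KD. Its fitted fold change of 0.07 turned to -0.09 with the block.

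TOP2A, which untangles sister DNA, was at 1725 and 1653 CPM in control and at 1231 and 1136 CPM in AF9 KD. It was lower at an adjusted p of 0.0025, by less than 1.5-fold (-0.51 ± 0.10). In the MLL1 experiment it was at 538, 675 and 679.7 CPM in control and 435, 839 and 761 CPM in KD, which overlapped, with replicate 1 lowest in both groups.

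The genes of anaphase onset held the exception. CDC20, the activator of APC/C, was at 366 and 392 CPM in control and 327 and 300.1 CPM in AF9 KD (-0.27 ± 0.10, adjusted p = 0.046). UBE2C, the ubiquitin-conjugating enzyme of APC/C, was at 55.8 and 61.9 against 39.98 and 46.4 CPM (-0.44 ± 0.12, adjusted p = 0.011), and PTTG1 (securin), the inhibitor of separase, gave -0.53 ± 0.10 (0.0016). All 3 were lower by less than 1.5-fold. ESPL1, separase itself (ENSG00000135476, chr12:53268299-53293638, plus strand), went the other way: picked after its values were seen, it was at 69.4 and 71.7 CPM in control and 95.6 and 89.4 CPM in AF9 KD (0.39 ± 0.10, adjusted p = 0.0081, and 0.23 with an adjusted p of 0.068 with the GC offset). In MLL1 KD the same gene lay below every control, at 143, 141 and 153 CPM against 233, 182 and 182 CPM (-0.45 ± 0.14, adjusted p = 0.30, and 0.0024 with the block). CDC20 was at 241, 254 and 254 CPM in the MLL1 controls and 222, 223 and 254 CPM in KD, and UBE2C at 38.7, 39.0 and 42.1 against 41.4, 45.9 and 52.2 CPM. CDC20 and PTTG1 share 25.5% and 23.2% of their 31-base words with the pseudogenes CDC20P1 and PTTG3P.

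Of the cytokinesis genes, ANLN (anillin), which organises the contractile ring, also lay on opposite sides of the controls, as did CCNA2 and TPX2 above. Shown after its values were seen, it was at 135 and 127 CPM in control and 105 and 96.5 CPM in AF9 KD (-0.38 ± 0.10, adjusted p = 0.0089), while in the MLL1 experiment it was at 73.5, 58.2 and 60.4 CPM in control and 85.9, 91.7 and 81.3 CPM in KD. Every MLL1 KD library was above every control (0.43 ± 0.14, adjusted p = 0.34, and 0.0071 with the block). ECT2, which switches on RhoA at the cell equator, gave 0.00 ± 0.17 on the log2 scale for MLL1 KD and 0.00 ± 0.11 for AF9 KD, the latter reaching 0.20 with the GC offset.

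**Figure D5:**
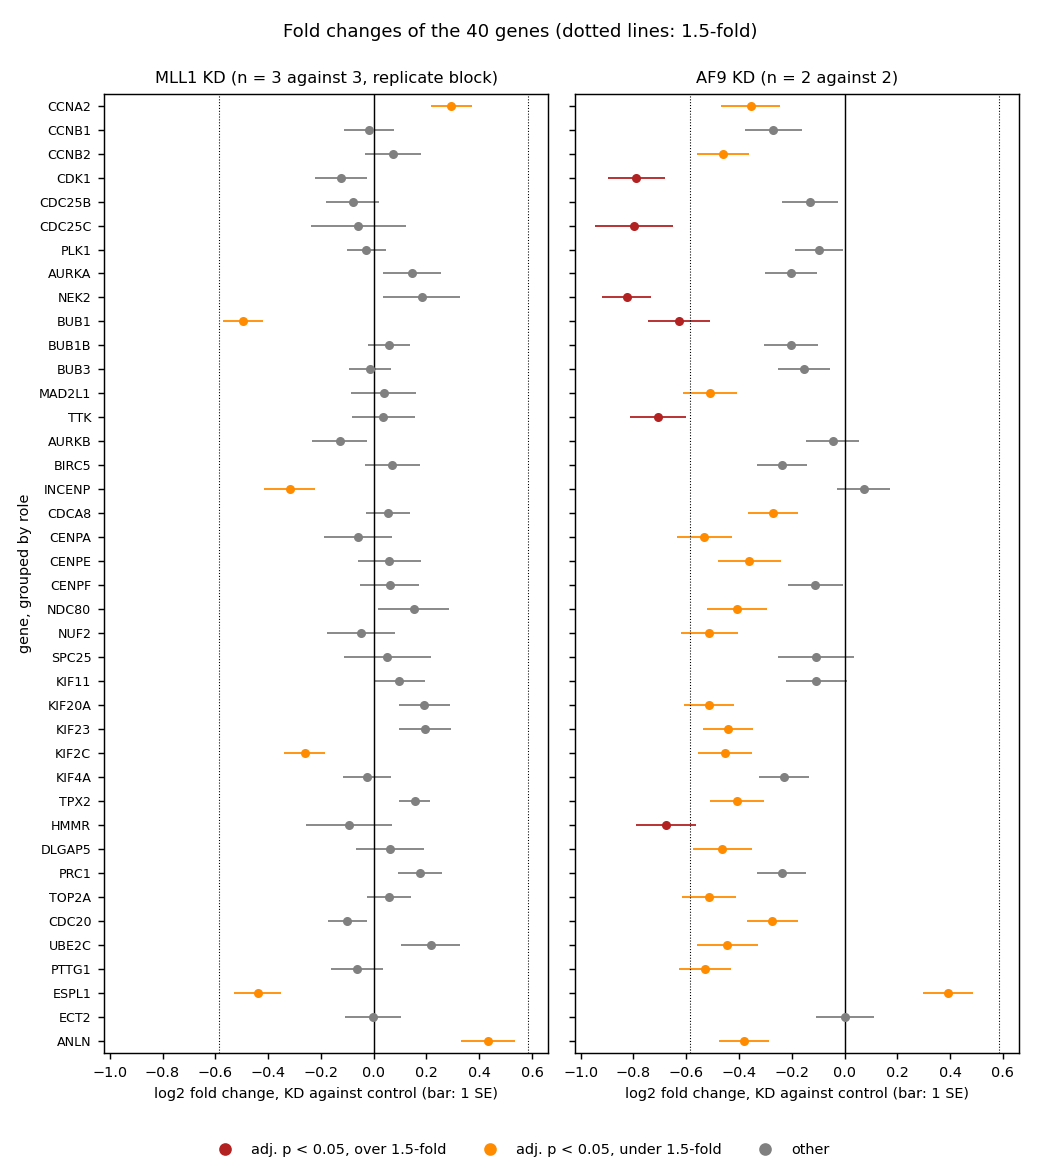
Log2 fold change of each gene with 1 SE (bar) in MLL1 KD (with the replicate block) and AF9 KD, coloured by whether the adjusted p is under 0.05 and the change over 1.5-fold (dotted lines). In AF9 KD 6 genes are past both thresholds and ESPL1 lies to the right of 0, and in MLL1 KD no gene passes 1.5-fold.

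Whether the KDs differed in their effect was tested as a difference of the log2 fold changes (MLL1 KD minus AF9 KD) over the 10 libraries and the 12750 genes tested in both experiments. The KDs were of unequal depth: in its own experiment KMT2A went from a mean of 1291 to 820 CPM, and MLLT3 from 537 to 99.9 CPM. Each target also had a lower mean in the other KD. KMT2A went from 465 to 372 CPM in AF9 KD. MLLT3 went from 214 to 176 CPM in MLL1 KD, with overlap between the groups. A difference due to depth cannot be told apart from one between the targets. The difference was positive in 37 of the 40 genes (50.0% of all genes tested) with a median of 0.46, against 0.00 over all genes, but none of the 40 passed, where 0.784% of all genes tested were called higher and 0.573% lower. The smallest adjusted p of the 40 in edgeR was that of ANLN (difference 0.83 ± 0.18, adjusted p = 0.059). The replicate block in the MLL1 experiment was an alternative chosen after seeing the data. With it, 10 genes were called with a higher log2 fold change in MLL1 KD than in AF9 KD (6.96% of all genes). In 1 gene the fold change was lower (8.15%). The 10 were NEK2, ANLN, CDC25C, TTK, KIF20A, CDK1, UBE2C, CCNA2, KIF23 and TOP2A, with differences from 0.59 to 1.04, and the lower gene was ESPL1 (-0.81 ± 0.14, adjusted p = 0.00065). With the GC offset beside that block, 5 of the 10 (NEK2, KIF20A, CDC25C, ANLN and UBE2C, against 5.45% of all genes) and ESPL1 (4.24%) were called. Without MLL1 KD replicate 1 and with no block, 14 of the 40 had a higher fold change in MLL1 KD and 1 a lower one. Of all 12750 genes, 510 were higher and 423 lower there. Scaling by total counts moved the median difference over all genes by -0.11. With the block it left 4 of the 40 higher and 1 lower, against 585 and 1449 of all genes.

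Other genes of the pathway gave few calls, in both directions, to be read against 5.06% of all genes called lower and 8.01% called higher in AF9 KD. There, of 37 further kinetochore and centromere genes 3 were called lower, HJURP (-0.76), SGO2 (-0.76) and CENPQ (-0.76), and 1 higher, CENPM (0.67), with a median of -0.21. HJURP loads CENPA, and SGO2 guards centromeric cohesion. Of 26 further spindle, kinesin and cytokinesis genes 2 were lower, RACGAP1 (-0.94), the partner of KIF23 in centralspindlin, and CKAP2L (-0.68), with a median of -0.25, and KIF18A joined them with the block (-0.59). Of 8 condensin subunits none was called (median -0.29). Of 17 genes of APC/C 2 were called higher, ANAPC2 (0.83) and FZR1 (0.80), and 0 lower (median 0.11). PKMYT1, an inhibitory kinase of CDK1, was higher (1.05) and was the sole call among 15 further regulators of mitotic entry. Of 13 genes of DREAM, B-MYB and FOXM1, E2F4 (0.76) and TFDP1 (0.71) were higher and none was lower. CCND2 (-0.77) and CDK2 (-0.75) were the calls among 11 tested G1 cyclins, CDKs, RB and E2F genes, and CCNG1 (-0.64) the call among 13 tested CDK inhibitors and p53 targets, all lower. The 20 S phase genes gave no call in AF9 KD and had a median of 0.22, with 8 higher and 0 lower at an adjusted p under 0.05 (14.4% and 14.5% of all genes). With the GC offset 1 further kinetochore gene and 1 further spindle gene were still called lower, none of the APC/C and mitotic entry lists was called, and 1 gene of the DREAM list was higher. The S phase median was then 0.16 and that of the further kinetochore genes -0.11.

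In MLL1 KD no gene of these 9 lists was called without the block. With it, CCNG1 (-0.65) and CCND1 (-0.61) were lower and CCNB3 (1.26) and ANAPC13 (0.59) higher. CCNB3 was at only 1.61 to 5.13 TPM over the libraries of the MLL1 experiment, and CCND1 spread from 3.68 to 28.0 TPM. The S phase genes had a median of -0.22 in MLL1 KD, with 10 of 20 lower and 0 higher at an adjusted p under 0.05 with the block (6.95% and 6.62% of all genes) and none without it.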

How the data were processed

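The authors deposited 2 tables of raw read counts per gene symbol, made from strand-specific polyA RNA-seq with fastp 0.13.1, HISAT2 2.1.0 (hg38) and featureCounts 1.6.1, per the labels. The annotation used for counting is not given in the sources used here. Of 28103 symbols, 92.42% were matched to GENCODE v44 genes, in part through RefSeq synonyms, for length and GC content. In each experiment, genes reaching 1 TPM on average (1 CPM where no length was known) were tested by edgeR 4.0.16 (glmQLFTest, TMM factors, 2-sided) in R 4.3.3, with Benjamini-Hochberg adjustment over all genes tested. A gene was called at an adjusted p under 0.05 and a fold change of at least 1.5. CPM values carry TMM factors. SE is the log2 fold change over the root of its F value. Alternatives were DESeq2 1.42.0, other scaling, filters and thresholds, GC and length offsets (lowess span 0.3), left-out libraries and the replicate number as a block. The labels do not say whether replicates are separate cultures, so p-values measure the spread between these libraries. In the MLL1 experiment same-numbered libraries deviated together (correlations 0.647, 0.325 and 0.351). The main fit there was unpaired all the same, and the replicate number entered as a block in an alternative fit only. The block rests on the data, not on the labels, and holds for replicate 1 against the rest, since control 2 with KD 3 (0.368) and control 3 with KD 2 (0.359) correlated as much. The AF9 experiment has 2 pairs (0.156, and 0.685 over the 40 genes), too few to tell, and was not taken as paired. The tests were checked on simulated counts with the same spread for every gene. For the unpaired MLL1 fit these held no replicate effect, so the check does not cover the deviation of replicate 1. The genes named by value in every library were the targets, every gene called and 16 central genes set by name, and others are marked. The 40 genes and all lists were chosen with earlier results of these data known.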

Additional observations from a re-analysis of the deposited data

Results flagged for a closer look

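The difference between the KD effects (MLL1 KD minus AF9 KD, log2) passed the test for MLLT3 (2.16), the target of the AF9 shRNA, and for HJURP (0.99 ± 0.17, adjusted p = 0.036 by edgeR), which loads CENPA onto centromeres, without any block. With the replicate block in the MLL1 experiment, an alternative chosen after seeing the data, 11 of the 40 genes passed. Of all genes tested, 6.96% passed with a positive and 8.15% with a negative difference. NEK2 differed by 1.04, ANLN by 0.83, CDC25C by 0.77, TTK by 0.76, KIF20A by 0.72, CDK1 and UBE2C each by 0.68, CCNA2 by 0.67, KIF23 by 0.66 and TOP2A by 0.59. ESPL1 had a difference of -0.81. Groups of 2 or 3 libraries are too small for a test of single outlying libraries. The part of culture state and batch in these differences cannot be told apart from the KD, since each experiment had its own libraries. Nor can the unequal depth of the KDs be told apart from which target was knocked down.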

How the results depend on the processing

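No call among the 40 genes was made in MLL1 KD under any alternative. Over all genes, 5 were called lower and 5 higher in MLL1 KD, and these counts were 119 and 113 with DESeq2, 111 and 107 with DESeq2 before the filter, 3 and 3 with total counts, 14 and 18 with no filter, 363 and 320 with the replicate block, 358 and 318 with GC offsets and the block, 257 and 213 with DESeq2 and the block, and 339 and 355 with replicates 2 and 3 alone. With GC offsets 3 were lower, and at a mean TPM of at least 5, 3 were higher. Leaving out 1 library gave 0 to 25 lower and 0 to 28 higher, both highest without MLL1 KD replicate 1. Signs near 0 turned: with the block, GC offsets and block, and DESeq2 and block, CDC25C was -0.058, -0.049 and -0.068 and HMMR -0.093, -0.13 and -0.13. With 1 library left out, CDK1 ranged from -0.21 to 0.029, CDC25C from -0.23 to 0.34, NEK2 from -0.014 to 0.56, TTK from -0.078 to 0.32 and HMMR from -0.23 to 0.49, each highest without MLL1 KD replicate 1.

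In AF9 KD, genes called lower numbered 440 with total counts, 1942 with no fold threshold and 138 at 2-fold, and those called higher 1923 and 373 with the last pair and 493 and 575 with GC offsets without and with the block. Of the 40 genes, 2 were called lower with GC offsets without or with the block, 24 (and 1 higher) with no fold threshold, 0 at 2-fold and 3 to 11 with 1 library left out. Blocking by number, with too few AF9 pairs to tell whether numbers pair the libraries (correlation 0.156, and 0.685 over the 40 genes), gave 6 lower. Signs turned for AURKB with total counts (0.043). With GC offsets without and with the block, INCENP was -0.24 and -0.24, CENPF 0.050 and 0.048, SPC25 0.032 and 0.033, KIF11 0.043 and 0.037, and ECT2 0.20 and 0.20. ECT2 was also 0.0024 with DESeq2, 0.0022 with its size factors, 0.088 with total counts and 0.028 at a mean TPM of at least 5. With 1 library left out, 558 to 1316 genes were called higher, and ranges crossed 0 for AURKB (-0.11 to 0.022), INCENP (-0.0079 to 0.16), CENPF (-0.22 to 8.1e-05), SPC25 (-0.23 to 0.011), KIF11 (-0.30 to 0.067) and ECT2 (-0.13 to 0.12).

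For the difference between the KDs, 1 of the 40 genes was lower with total counts, the block in both experiments or in the MLL1 experiment alone, GC offsets with either block, total counts with the block, and replicates 2 and 3 alone. In these settings 110 to 1449 of all 12750 genes were lower. Higher were 12 with both blocks and 10 with that of the MLL1 experiment (891 and 887 of all genes). With GC offsets added there were 5 and 5 (663 and 695). There were 4 with total counts and block (585), and 18 with replicates 2 and 3 (927). With 1 library left out there were 0 to 1 lower and 0 to 14 higher. The cause of these shifts was not tested. With 2 or 3 libraries a group, an exact permutation test of a single gene could not reach below 0.333 in AF9 and 0.1 in MLL1.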
